A study of Mus musculus with 18 samples.

Results

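Amino acid and peptide transporters were followed in the ileal epithelium of mouse pups given a probiotic bacterium. The set held every array probe whose platform gene symbol begins with Slc1a, Slc3a, Slc6a, Slc7a, Slc15a, Slc36a, Slc38a or Slc43a, which gave 128 probes for 63 genes. A gene was kept when a probe had a detection p under 0.05 on at least 3 arrays, and it was read from its brightest such probe (by the mean of all 18 arrays). By this rule 46 of the 63 genes were measured, out of 16835 genes and unnamed probes tested on the array. The members were chosen by name, with earlier results of these data known. Detection and signal set which of them were measured and by which probe. One of them, Slc7a6os, matches the prefix but is the neighbour of Slc7a6 and not a transporter.

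All 18 animals were specific pathogen-free CD-1 pups, an outbred stock, of both sexes, with the sex of each pup not given. Each was gavaged once at 11 days of age with 50 uL of phosphate-buffered saline (PBS). The 3 treatments were PBS alone, PBS with 1e+08 colony-forming units of Lactobacillus reuteri DSM 17938, or PBS with the same dose of L. reuteri ATCC PTA 6475. Epithelium from the last 4 cm of ileum was cut from 24 sections per animal by laser capture, which lifts chosen cells off a tissue section, and its RNA was read on single-colour Illumina bead arrays. The pups sampled 4 h after gavage are labelled as 11 days old and those sampled 24 h after it as 12 days old. There were 3 pups in each of the 6 groups, called pups 1, 2 and 3 below by the replicate number of their labels, and values are listed in that order.

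Suckling pups take up part of the protein of milk as free amino acids and as di- and tripeptides. Enterocytes, the absorptive cells of the villus, carry uptake systems on the luminal brush border and a separate set of exchangers and facilitators on the basolateral side, which pass amino acids on to the blood. Several of these carriers work as pairs of a light chain with a heavy chain that brings it to the membrane, such as Slc7a9 with Slc3a1 at the brush border and Slc7a7 with Slc3a2 on the basolateral side. Other members feed the cell's own growth or sense amino acids in the lysosome, and some of them are switched on by the transcription factor ATF4 when amino acids run short.

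The arrays had mean signals of 210.3 to 459.7 and detected between 20284 and 22848 of their 45281 probes. Each label names a separate mouse, so the tests measure the spread between pups. Values below are normalised log2 signals unless a fold is named, and the level of one probe cannot be set against that of another. All 8 epithelial markers were measured (mean 10.6 to 11.3 per array), as were 9 of 11 ileal enterocyte markers; Fabp2, the intestinal fatty acid-binding protein, and Slc10a2, the ileal bile acid carrier, were not detected. The captured material was not only epithelium by its markers: all 6 smooth muscle markers (10.5 to 11.7 per array) and all 6 fibroblast markers (10.1 to 11.2) were detected as well. In such bulk samples, fewer cells of a type and less RNA per cell cannot be told apart.

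Most carriers of an absorptive cell that had a probe were detected. Of the 46 measured genes, 33 were detected on all 18 arrays and 13 on 3 to 16 of them. Measured members included 9 of 12 brush border genes with a probe, all 7 basolateral genes, 7 of 8 growth and sensing genes, 2 of 3 endolysosomal genes and 9 of 12 carriers best known from neurotransmission. The other 17 genes did not reach the detection rule. They were Slc6a14, Slc1a5 and Slc6a20b among the brush border carriers, the cationic amino acid carrier Slc7a1, the lysosomal carrier Slc15a3, and Slc15a5, Slc36a3, Slc43a3, Slc6a2, Slc6a5, Slc6a11, Slc6a15, Slc6a18, Slc6a21, Slc7a10, Slc7a12 and Slc7a15. Slc3a1, Slc7a5 and Slc36a4 were not analysed here, since no probe carries their symbol in the annotation used.

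The promoters of 3 measured members are shown because each holds the C/EBP-ATF response element TGATGNAA, the sequence through which ATF4 is known to act on amino acid starvation genes. The windows come from RefSeq (GRCm38.p6), run 5′ to 3′ on the gene's own strand from 250 bases before to 50 bases after the gene start, and carry the element, or its reverse complement, in capitals. All 3 genes lie on the minus strand. Slc7a11, the light chain of the cystine-glutamate exchanger, has its window at chr3:50443564-50443863 and holds the element on both strands. Slc7a7, the basolateral light chain y+LAT1, has its window at chr14:54417895-54418194 with 2 matches. Slc1a4, the neutral amino acid exchanger ASCT1, has its window at chr11:20332664-20332963 with 1 match.
Slc7a11: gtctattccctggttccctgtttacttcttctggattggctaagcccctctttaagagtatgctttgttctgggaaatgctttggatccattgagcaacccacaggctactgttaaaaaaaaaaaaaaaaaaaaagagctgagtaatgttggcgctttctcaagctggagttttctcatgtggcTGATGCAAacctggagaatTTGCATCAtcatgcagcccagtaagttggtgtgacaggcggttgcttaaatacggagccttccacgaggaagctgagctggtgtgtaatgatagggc
Slc7a7: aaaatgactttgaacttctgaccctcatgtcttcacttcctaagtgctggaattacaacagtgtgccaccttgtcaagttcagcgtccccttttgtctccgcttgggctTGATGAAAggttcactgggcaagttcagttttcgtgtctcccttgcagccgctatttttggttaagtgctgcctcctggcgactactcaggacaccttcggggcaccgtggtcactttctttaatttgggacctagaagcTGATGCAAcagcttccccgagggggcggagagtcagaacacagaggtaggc
Slc1a4: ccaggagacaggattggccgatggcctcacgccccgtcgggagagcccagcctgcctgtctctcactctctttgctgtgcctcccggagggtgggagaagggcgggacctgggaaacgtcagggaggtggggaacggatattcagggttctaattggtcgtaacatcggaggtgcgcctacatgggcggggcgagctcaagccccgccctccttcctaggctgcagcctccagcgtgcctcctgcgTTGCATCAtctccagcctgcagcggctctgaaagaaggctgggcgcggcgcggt
Searched on both strands, the 8-base element occurred in 4 of 54 promoter windows of 36 measured members found in the table (7.41%), and in 1304 of 32851 windows of all genes (3.97%). A second window of Slc7a7 overlaps the one shown and shares a site with it. A match is only a description of the letters in the window.

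No transporter reached an adjusted p under 0.05 in the 10 comparisons made (limma, Benjamini-Hochberg over 16835 features), and neither did any other feature (0%), so every difference below is one that did not pass. With the replicate number of the labels as a block, 246 features passed with ATCC PTA 6475 at 24 h, none of them a transporter. Counts at an unadjusted p under 0.05 are given beside the share of all features that met the same rule. With DSM 17938 at 4 h, 2 members were higher than PBS (1.66% of all features) and 1 was lower (1.68%), 3 in all (3.34%). With ATCC PTA 6475 at 4 h, 1 was higher (1.76%) and 0 were lower (1.57%), against 3.33% in all. With DSM 17938 at 24 h, 1 was higher (2.55%) and 1 was lower (2.42%), against 4.98% in all. With ATCC PTA 6475 at 24 h, 3 were higher (7.59%) and 2 were lower (7.48%), which is 10.9% of the members against 15.1% of all features. The members' count was near or below that of the array as a whole in these comparisons, apart from DSM 17938 at 4 h, where 6.52% is 3 genes.

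The middle of the transporter set lay near 0 with both strains. The median log2 difference of the 46 members was -0.0084 for DSM 17938 and -0.0056 for ATCC PTA 6475 at 4 h, beside 0.006 and 6e-04 for all features. At 24 h it was -0.0019 and 0.0358, beside 0.0079 and 0.0153. Those medians lie within the 0.07 by which the members' median differed between pups of a group (SD). Scaling the arrays to a common median in place of quantile normalisation gave medians of -0.08 and -0.11 at 4 h, and -0.15 for ATCC PTA 6475 at 24 h. All features moved with the members under that scaling, to -0.07, -0.11 and -0.16 in the same order. No member at 4 h differed from PBS by more than 1.5-fold, beside 1.57% of all features with DSM 17938 and 1.73% with ATCC PTA 6475. At 24 h 2 members did so with each strain (4.35%), beside 2.6% of all features with DSM 17938 and 6.22% with ATCC PTA 6475. The comparisons of both strains at one time share the same 3 PBS pups.

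**Figure D1:**
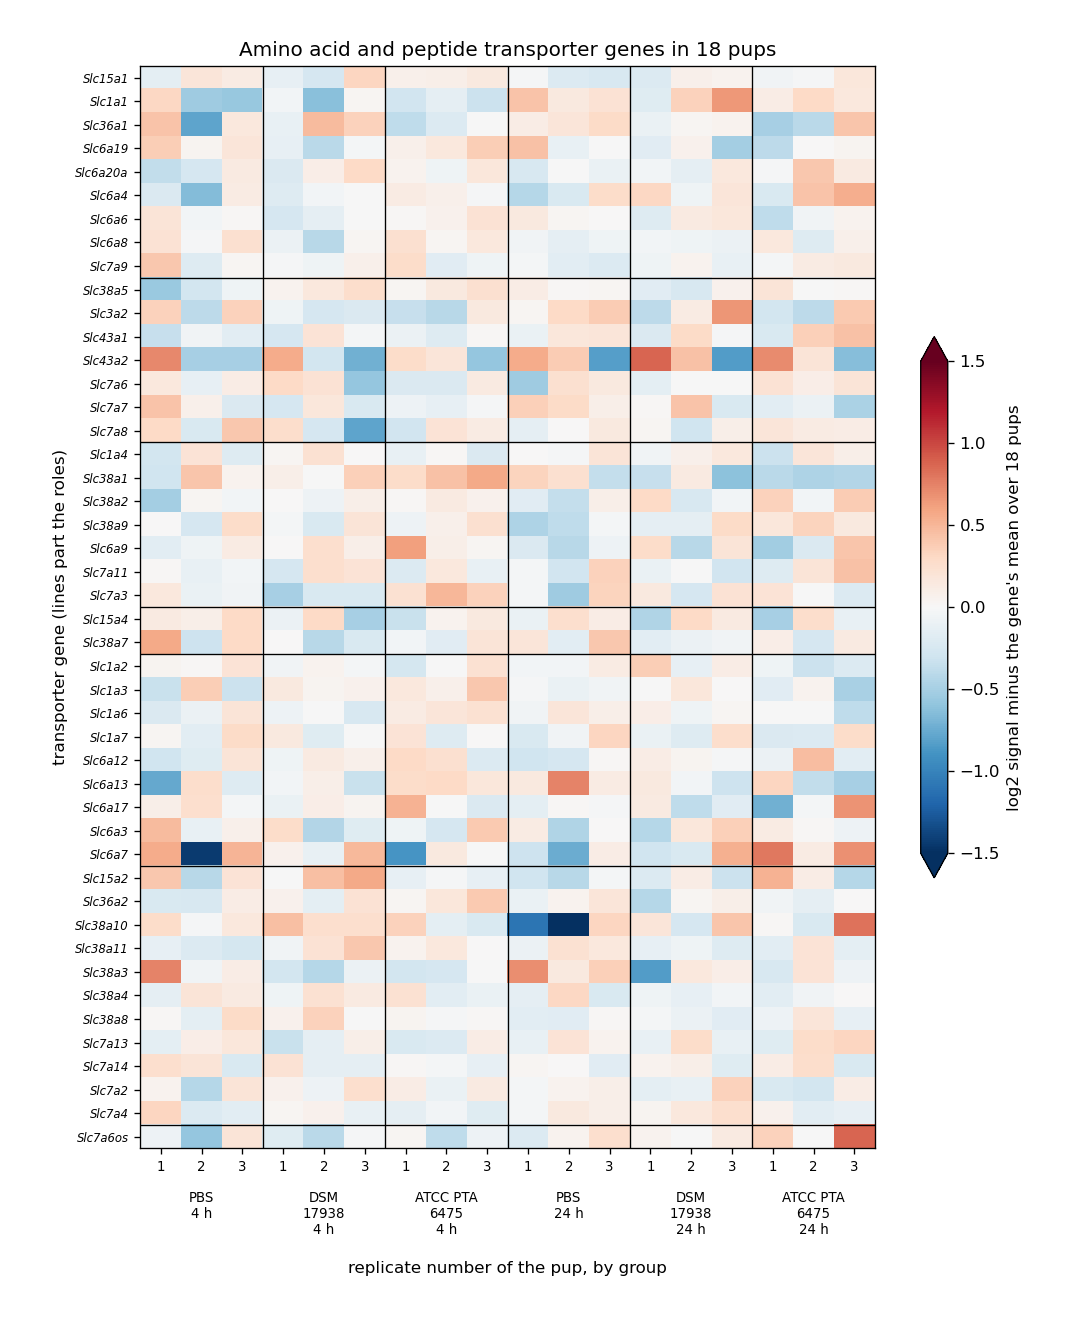
Deviation of each of the 46 measured members from its own mean over the 18 arrays (colour, log2 units), with 1 column per pup and the 6 groups side by side. No block of genes is shifted in all pups of 1 group, and the widest deviations sit in 1 or 2 pups of a group.

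**Figure D2:**
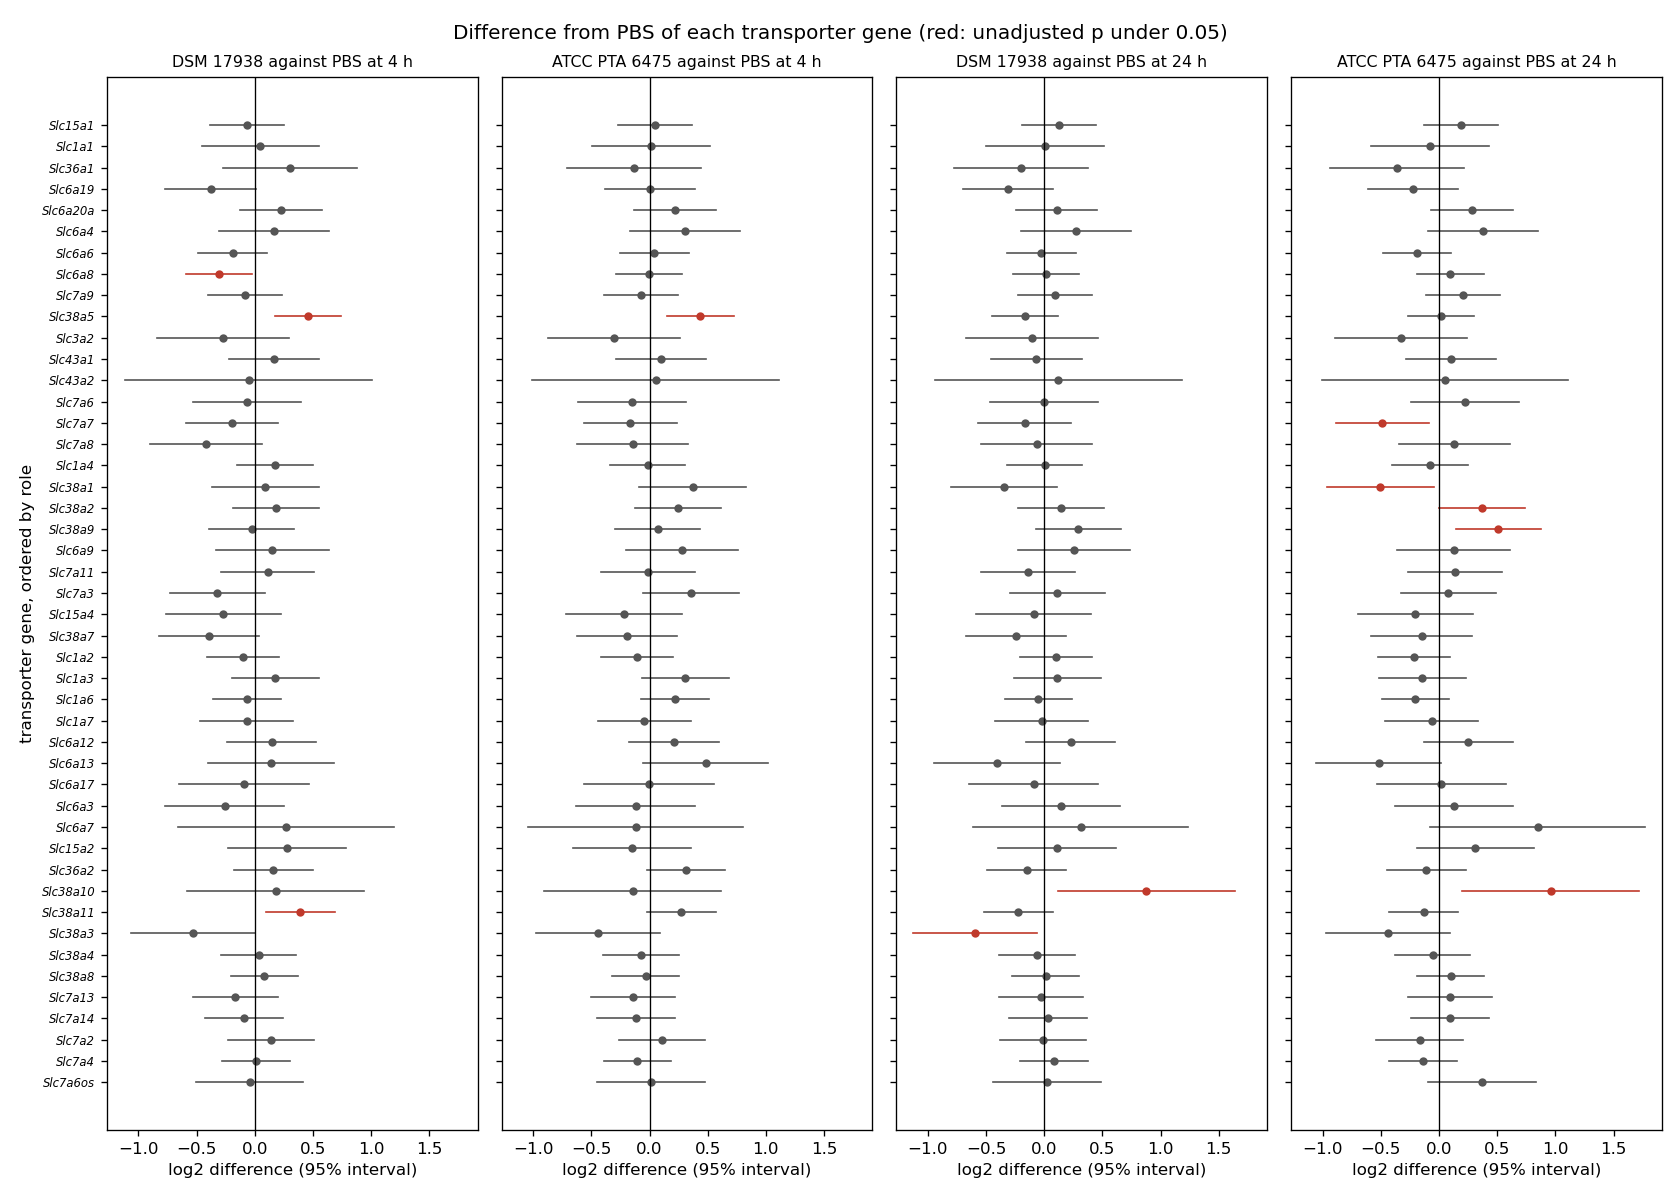
Difference of each of the 46 members from PBS (log2, point) with its 95% interval (line) in the 4 comparisons of a strain with PBS, with unadjusted p under 0.05 in red. Red points number 3, 1, 2 and 5, and none passed after adjustment over all features.

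The brush border carriers were led at 4 h by lower values of the creatine carrier and the main neutral amino acid carrier with DSM 17938. Slc6a8 takes up creatine. At 4 h it stood at 11.52, 11.27 and 11.54 with PBS, 11.21, 10.88 and 11.32 with DSM 17938 and 11.53, 11.32 and 11.45 with ATCC PTA 6475. The 24 h pups had 11.24, 11.16 and 11.23 with PBS, 11.25, 11.22 and 11.21 with DSM 17938 and 11.45, 11.10 and 11.37 with ATCC PTA 6475. The DSM 17938 pups were low at 4 h, with pup 3 reaching into the PBS range, while the groups at 24 h lay close together. The difference from PBS at 4 h was -0.31 (SE 0.13, 95% interval -0.59 to -0.02), a 1.24-fold lower signal (unadjusted p 0.0373, adjusted p 1, limma). Against DSM 17938 at the same time, ATCC PTA 6475 was higher by 0.30 (SE 0.13, 95% interval 0.01 to 0.58). Within PBS it was -0.23 at 24 h against 4 h, with all 24 h pups below the 4 h pups.

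Slc6a19, B0AT1, is the sodium-coupled carrier that takes up most neutral amino acids from the lumen. Its 4 h values were 8.83, 8.51 and 8.65 with PBS, 8.34, 8.07 and 8.44 with DSM 17938 and 8.55, 8.63 and 8.83 with ATCC PTA 6475. All 3 DSM 17938 pups lay below all PBS pups and all ATCC PTA 6475 pups at that time. Its 24 h values were 8.90, 8.36 and 8.46 with PBS, 8.29, 8.53 and 7.95 with DSM 17938 and 8.08, 8.47 and 8.51 with ATCC PTA 6475, and these groups overlapped. DSM 17938 differed from PBS by -0.38 (SE 0.18, 95% interval -0.77 to 0.01) at 4 h and by -0.32 (SE 0.18, 95% interval -0.70 to 0.07) at 24 h. The gene's other detected probe gave -0.51 and -0.01, so the 24 h difference rested on 1 probe. At 4 h that probe put ATCC PTA 6475 at -0.36 from PBS, against 0.0064 on the chosen one. Between the strains it gave 0.14 at 4 h, against 0.39, so the separation of the strains also depends on the probe.

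Slc7a9, the light chain of the cystine and dibasic amino acid exchanger, varied little. It stood at 12.57, 11.97 and 12.19 with PBS, 12.15, 12.10 and 12.24 with DSM 17938 and 12.43, 11.99 and 12.10 with ATCC PTA 6475 at 4 h. The 24 h pups stood at 12.13, 12.00 and 11.96 with PBS, 12.10, 12.22 and 12.05 with DSM 17938 and 12.13, 12.28 and 12.31 with ATCC PTA 6475. Pups of all treatments overlapped at both times, and the 4 differences from PBS ran from -0.08 (DSM 17938, 4 h) to 0.21 (ATCC PTA 6475, 24 h). Its other detected probes gave -0.09 and -0.48 for ATCC PTA 6475 at 24 h, so that sign depends on the probe. Slc6a6 is the taurine carrier. At 4 h the values were 12.27, 12.02 and 12.09 with PBS, 11.82, 11.93 and 12.07 with DSM 17938 and 12.09, 12.13 and 12.28 with ATCC PTA 6475. At 24 h they were 12.21, 12.10 and 12.08 with PBS, 11.88, 12.20 and 12.24 with DSM 17938 and 11.69, 12.02 and 12.12 with ATCC PTA 6475. Every ATCC PTA 6475 pup was above every DSM 17938 pup at 4 h, by a mean of 0.23 (SE 0.14, 95% interval -0.06 to 0.53), and both strains overlapped PBS.

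Slc1a1, EAAT3, the epithelial carrier of glutamate and aspartate, had higher values at 24 h than at 4 h. At 4 h the signals were 8.95, 8.11 and 8.08 with PBS, 8.60, 8.01 and 8.67 with DSM 17938 and 8.35, 8.50 and 8.32 with ATCC PTA 6475. At 24 h the signals were 9.07, 8.79 and 8.85 with PBS, 8.46, 8.98 and 9.29 with DSM 17938 and 8.76, 8.93 and 8.79 with ATCC PTA 6475. PBS pup 1 was the highest at 4 h and the other 4 h pups lay between 8.01 and 8.67, while the 24 h pups lay between 8.76 and 9.29 apart from DSM 17938 pup 1 at 8.46. Over the 3 treatments the 24 h pups were higher by 0.48 (SE 0.14, 95% interval 0.19 to 0.77), 1.4-fold, with an unadjusted p of 0.00292 and an adjusted p of 0.623 (limma). Its other detected probe gave 0.51. Age and time after gavage differ together here and cannot be told apart.

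Slc36a1, PAT1, a proton-coupled carrier of small amino acids such as glycine and proline, was more uneven between pups. It was 6.87, 5.65 and 6.60 with PBS, 6.33, 6.91 and 6.78 with DSM 17938 and 6.06, 6.23 and 6.43 with ATCC PTA 6475 at 4 h. It was 6.55, 6.62 and 6.73 with PBS, 6.35, 6.47 and 6.49 with DSM 17938 and 5.94, 6.03 and 6.85 with ATCC PTA 6475 at 24 h. PBS pup 2 was the lowest of all at 4 h, and at 24 h all DSM 17938 pups lay just under all PBS pups, by a mean of -0.20 (SE 0.27, 95% interval -0.77 to 0.38). Slc6a4, the serotonin carrier, clears serotonin into enterocytes. Its signals were 8.72, 8.29 and 9.07 with PBS, 8.75, 8.90 and 8.94 with DSM 17938 and 9.06, 9.01 and 8.93 with ATCC PTA 6475 at 4 h. At 24 h its signals were 8.52, 8.71 and 9.22 with PBS, 9.26, 8.88 and 9.12 with DSM 17938 and 8.71, 9.37 and 9.48 with ATCC PTA 6475. These groups overlapped throughout, and the differences from PBS were 0.17 and 0.31 at 4 h and 0.27 and 0.38 at 24 h, for DSM 17938 and ATCC PTA 6475 in that order. The other detected Slc6a4 probe had the opposite sign in all 4, at -0.06, -0.18, -0.06 and -0.03.

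The remaining brush border members were near background. Slc15a1, PepT1, the proton-coupled carrier of di- and tripeptides, was detected on 6 of 18 arrays by 1 of its 2 probes. Its values were 4.51, 4.83 and 4.77 with PBS, 4.53, 4.40 and 4.97 with DSM 17938 and 4.72, 4.74 and 4.79 with ATCC PTA 6475 at 4 h; the 24 h pups read 4.63, 4.45 and 4.40 with PBS, 4.44, 4.73 and 4.70 with DSM 17938 and 4.60, 4.63 and 4.82 with ATCC PTA 6475. It was detected in all 3 ATCC PTA 6475 pups at 4 h and in at most 1 pup of any other group, yet the groups overlapped and the difference from PBS there was 0.05. Slc6a20a, SIT1, the proline carrier, was detected on 11 arrays. It read 4.43, 4.55 and 4.94 with PBS, 4.59, 4.91 and 5.10 with DSM 17938 and 4.86, 4.75 and 4.97 with ATCC PTA 6475 at 4 h; the 24 h pups read 4.56, 4.80 and 4.70 with PBS, 4.76, 4.67 and 4.96 with DSM 17938 and 4.78, 5.20 and 4.94 with ATCC PTA 6475. PBS overlapped with both strains at both times, and the largest difference was 0.28 (SE 0.17, 95% interval -0.06 to 0.63) with ATCC PTA 6475 at 24 h. Of the 9 measured brush border members, 4 were above PBS with DSM 17938 and 6 with ATCC PTA 6475 at 4 h, with 6 and 5 at 24 h.

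**Figure D3:**
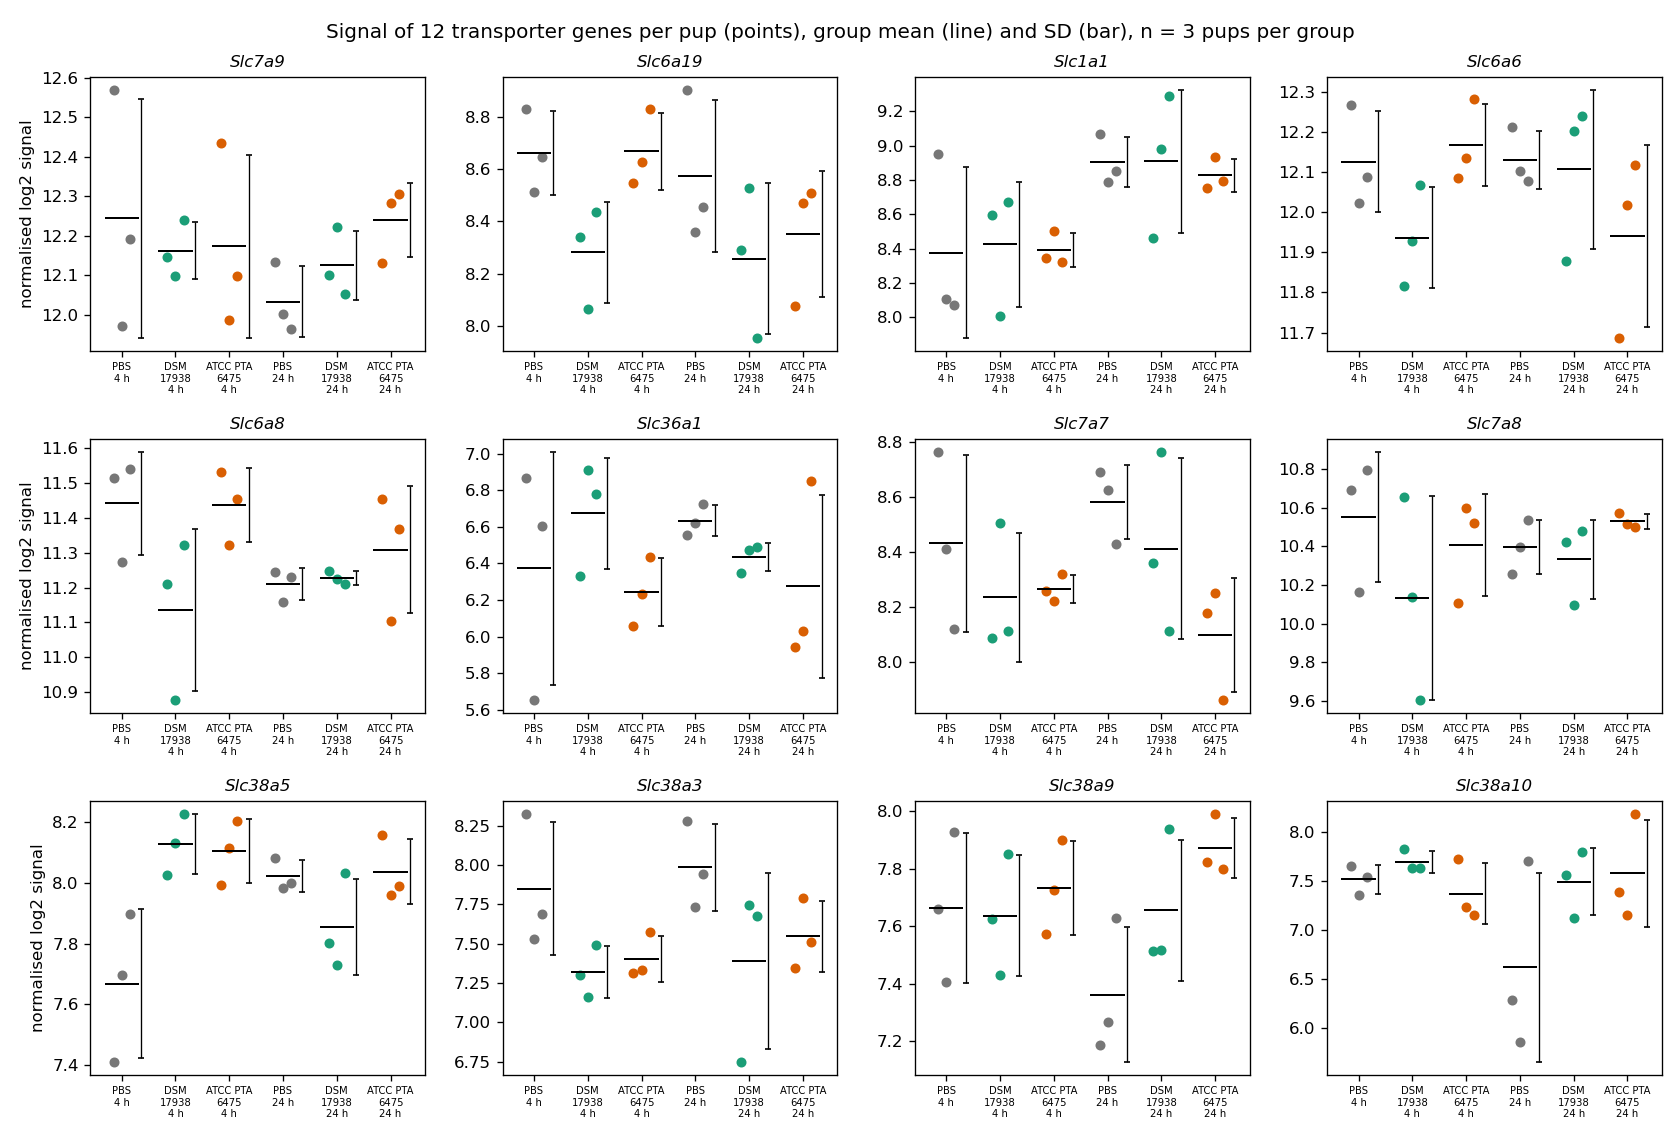
Normalised log2 signal of 12 members in each pup (points) with the group mean (bar), for PBS, DSM 17938 and ATCC PTA 6475 at 4 h and 24 h, with a separate axis range per gene. The 3 PBS pups at 4 h are the lowest of that time for Slc38a5, and 2 PBS pups at 24 h lie below all others for Slc38a10.

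On the basolateral side the clearest value was a low signal of Slc38a5 in the PBS pups at 4 h. Slc38a5, SNAT5, carries glutamine, asparagine, histidine and serine in exchange for protons. The 4 h pups read 7.41, 7.70 and 7.90 with PBS, 8.03, 8.13 and 8.23 with DSM 17938 and 7.99, 8.12 and 8.21 with ATCC PTA 6475. All pups of both strains were above all PBS pups. DSM 17938 was 8.13 ± 0.10 against 7.67 ± 0.25 with PBS (mean ± SD), a difference of 0.46 (SE 0.13, 95% interval 0.18 to 0.75), 1.38-fold, with an unadjusted p of 0.00339 and an adjusted p of 1 (limma). ATCC PTA 6475 was 8.11 ± 0.11, a difference from the same PBS pups of 0.44 (SE 0.13, 95% interval 0.15 to 0.72), 1.35-fold, with an unadjusted p of 0.0049 and an adjusted p of 1 (limma). Groups did not overlap for 5 of 46 members with DSM 17938 at 4 h (8.05% of all features) and for 3 with ATCC PTA 6475 at 4 h (7.7%).

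A day after gavage the Slc38a5 groups overlapped. They read 8.08, 7.98 and 8.00 with PBS, 7.80, 7.73 and 8.03 with DSM 17938 and 8.16, 7.96 and 7.99 with ATCC PTA 6475. Both strains overlapped PBS at this time. PBS itself was higher at 24 h than at 4 h by 0.35 (SE 0.13, 95% interval 0.07 to 0.64), with no overlap, and both differences with the strains at 4 h rest on these 3 PBS pups. The effect of a strain at 24 h minus its effect at 4 h was -0.63 (SE 0.19, 95% interval -1.03 to -0.23) for DSM 17938 (unadjusted p 0.00439, adjusted p 1, limma). For ATCC PTA 6475 it was -0.42 (SE 0.19, 95% interval -0.82 to -0.02) (adjusted p 1, limma). In these 2 contrasts 2 members (2.21% of all features) and 5 members (4.7%) were under an unadjusted p of 0.05. Slc38a5 has 1 probe, and without any 1 array its 4 h difference stayed between 0.33 and 0.58 for DSM 17938 and between 0.31 and 0.55 for ATCC PTA 6475.

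Slc7a7, the y+LAT1 light chain that exports lysine, arginine and ornithine to the blood, was lower with ATCC PTA 6475 at 24 h. At 4 h it read 8.76, 8.41 and 8.12 with PBS, 8.09, 8.51 and 8.11 with DSM 17938 and 8.26, 8.22 and 8.32 with ATCC PTA 6475. A day after gavage it read 8.69, 8.62 and 8.43 with PBS, 8.36, 8.77 and 8.11 with DSM 17938 and 8.18, 8.25 and 7.86 with ATCC PTA 6475. Each of the 24 h ATCC PTA 6475 pups was below all PBS pups. The DSM 17938 pups lay on both sides of the PBS range, with pup 3 inside the ATCC PTA 6475 range. The difference from PBS was -0.49 (SE 0.19, 95% interval -0.88 to -0.09), 1.4-fold lower, with an unadjusted p of 0.0198 and an adjusted p of 0.244 (limma). Its other detected probe gave -0.62. Groups did not overlap for 5 of 46 members in this comparison (21.4% of all features) and for 2 with DSM 17938 at 24 h (9.04%).

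For the heavy chain Slc3a2 and the light chains Slc7a8 and Slc7a6, pups of both strains overlapped PBS at both times. Slc3a2, the 4F2 heavy chain, read 6.81, 6.07 and 6.81 with PBS, 6.40, 6.22 and 6.25 with DSM 17938 and 6.12, 6.04 and 6.61 with ATCC PTA 6475 at 4 h; the 24 h pups read 6.50, 6.76 and 6.84 with PBS, 6.07, 6.59 and 7.13 with DSM 17938 and 6.19, 6.08 and 6.86 with ATCC PTA 6475. Its pups overlapped in every comparison with PBS, and the difference with ATCC PTA 6475 at 24 h was -0.33 (SE 0.27, 95% interval -0.89 to 0.24). Slc7a8, LAT2, an exchanger of neutral amino acids, read 10.69, 10.16 and 10.80 with PBS, 10.66, 10.14 and 9.60 with DSM 17938 and 10.10, 10.60 and 10.52 with ATCC PTA 6475 at 4 h; the 24 h pups read 10.26, 10.40 and 10.53 with PBS, 10.42, 10.10 and 10.48 with DSM 17938 and 10.57, 10.52 and 10.50 with ATCC PTA 6475. DSM 17938 pup 3 was low at 4 h, and at 24 h the ATCC PTA 6475 pups lay between 10.50 and 10.57, just above all DSM 17938 pups. The other detected Slc7a8 probe gave -0.22 against PBS there, and the chosen one 0.13. Between the strains at 24 h that other probe gave -0.24 and the chosen one 0.20, so this separation depends on the probe. Slc7a6, y+LAT2, read 6.48, 6.21 and 6.44 with PBS, 6.63, 6.55 and 5.75 with DSM 17938 and 6.12, 6.11 and 6.46 with ATCC PTA 6475 at 4 h; the 24 h pups read 5.80, 6.57 and 6.47 with PBS, 6.18, 6.32 and 6.32 with DSM 17938 and 6.55, 6.43 and 6.52 with ATCC PTA 6475.

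The facilitators Slc43a1 (LAT3) and Slc43a2 (LAT4) let large neutral amino acids such as leucine and phenylalanine pass down their gradient. Slc43a1 read 6.15, 6.45 and 6.35 with PBS, 6.25, 6.71 and 6.48 with DSM 17938 and 6.41, 6.31 and 6.52 with ATCC PTA 6475 at 4 h; the 24 h pups read 6.40, 6.67 and 6.69 with PBS, 6.28, 6.79 and 6.48 with DSM 17938 and 6.27, 6.86 and 6.94 with ATCC PTA 6475. Its groups overlapped. Slc43a2 read 6.31, 5.10 and 5.09 with PBS, 6.15, 5.32 and 4.88 with DSM 17938 and 5.88, 5.77 and 5.01 with ATCC PTA 6475 at 4 h; the 24 h pups read 6.16, 5.97 and 4.76 with PBS, 6.46, 6.03 and 4.75 with DSM 17938 and 6.30, 5.79 and 4.96 with ATCC PTA 6475. Its pups separated by replicate number: pups numbered 1 lay between 5.88 and 6.46, those numbered 2 between 5.10 and 6.03, and those numbered 3 between 4.75 and 5.09. The SD between pups of a group was 0.70 for this gene, against a median of 0.23 over the members. With the number as a term in the limma fit, Slc43a2 differed between the numbers at an adjusted p of 0.000155, as did 1 of 46 members (2.17%, this gene) and 926 of 16835 features (5.5%). Each number holds 1 pup of every group and goes with a run of consecutive array numbers in the labels (19 to 24, 25 to 30 and 31 to 36); whether a chip or a day is shared within a run is not stated, and its part in the result was not tested.

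**Figure D4:**
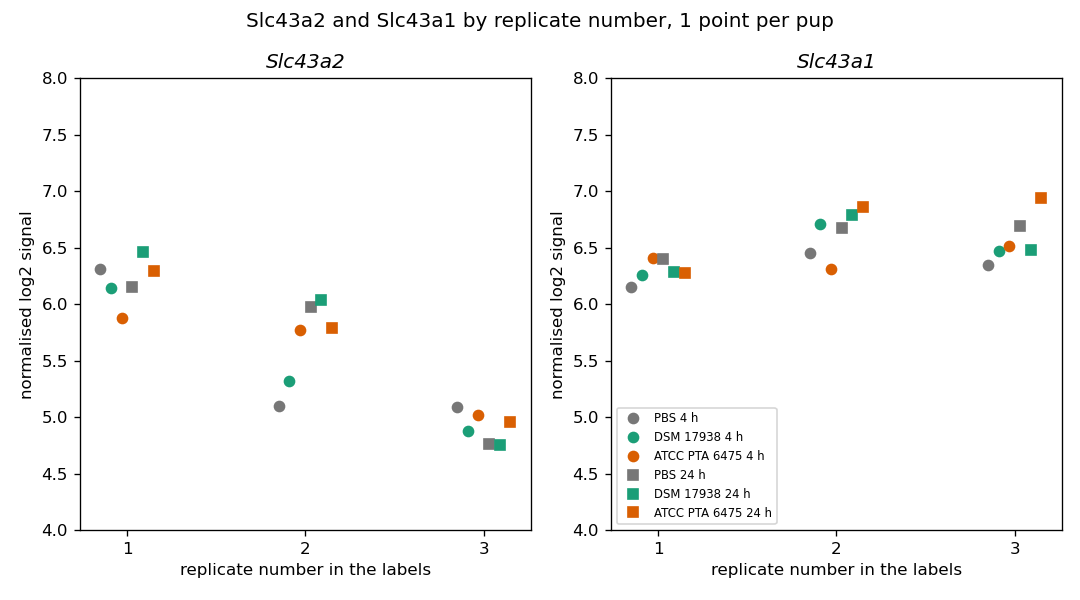
Normalised log2 signal of Slc43a2 and Slc43a1 in the 18 pups, set out by the replicate number of the labels, 6 pups per number, 1 from each group. Slc43a2 pups numbered 3 lie between 4.75 and 5.09, below all pups numbered 1, while Slc43a1 pups of the 3 numbers overlap.

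Among the carriers that feed growth and sensing, 3 of 7 were under an unadjusted p of 0.05 with ATCC PTA 6475 at 24 h (15.1% of all features), 2 of them higher (7.59%) and 1 lower (7.48%). Slc38a9 is the lysosomal carrier that reports arginine to the growth kinase complex mTORC1. It read 7.66, 7.41 and 7.93 with PBS, 7.63, 7.43 and 7.85 with DSM 17938 and 7.57, 7.73 and 7.90 with ATCC PTA 6475 at 4 h. At 24 h its values were 7.19, 7.27 and 7.63 with PBS, 7.51, 7.52 and 7.94 with DSM 17938 and 7.82, 7.99 and 7.80 with ATCC PTA 6475. All ATCC PTA 6475 pups were above all PBS pups at 24 h, by 0.51 (SE 0.17, 95% interval 0.14 to 0.87), 1.42-fold, with an unadjusted p of 0.00926 and an adjusted p of 0.19 (limma). This was the lowest adjusted p of any member in the comparisons with PBS. Of its other detected probes, 1 gave 0.53 and 1 gave -0.12. DSM 17938 differed by 0.29 (SE 0.17, 95% interval -0.07 to 0.66) at the same time, and the PBS pups at 24 h stood -0.30 from those at 4 h.

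Slc38a2, SNAT2, takes up small neutral amino acids and is a known target of ATF4 in amino acid-starved cells. Its 4 h signals were 10.85, 11.39 and 11.31 with PBS, 11.36, 11.28 and 11.45 with DSM 17938 and 11.38, 11.49 and 11.42 with ATCC PTA 6475. Its 24 h signals were 11.19, 11.00 and 11.45 with PBS, 11.65, 11.11 and 11.32 with DSM 17938 and 11.70, 11.31 and 11.74 with ATCC PTA 6475. PBS pup 3 overlapped the ATCC PTA 6475 range at 24 h, and the difference was 0.37 (SE 0.18, 95% interval 0.00 to 0.74) (unadjusted p 0.0498, adjusted p 0.331, limma). The other detected probes gave 0.14 and 0.11.

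Slc38a1, SNAT1, a glutamine carrier of dividing cells, was close to background and was detected on 11 arrays. It read 4.57, 5.29 and 4.93 with PBS, 4.96, 4.87 and 5.24 with DSM 17938 and 5.15, 5.32 and 5.44 with ATCC PTA 6475 at 4 h; the 24 h pups read 5.21, 5.11 and 4.51 with PBS, 4.53, 5.01 and 4.26 with DSM 17938 and 4.47, 4.41 and 4.44 with ATCC PTA 6475. At 24 h it was detected in 2 PBS pups, 1 DSM 17938 pup and 0 ATCC PTA 6475 pups, the last lying below all PBS pups. As a bound against the detection floor, which does not test a difference, PBS was at least 1.12-fold higher (unadjusted p 0.0329, adjusted p 0.286, limma). Its other detected probe gave 0.02. Over the 3 treatments it was detected in 8 of 9 pups at 4 h and 3 of 9 at 24 h, and differed by -0.42 on this probe and by 0.25 on the other.

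Slc7a3, CAT3, a carrier of cationic amino acids, separated the strains at 4 h. The PBS pups had 6.42, 6.17 and 6.22, those with DSM 17938 5.77, 6.03 and 6.03 and those with ATCC PTA 6475 6.49, 6.77 and 6.62. The 3 groups did not overlap: DSM 17938 was below PBS and ATCC PTA 6475 above it. The strains differed by 0.68 (SE 0.19, 95% interval 0.27 to 1.09), 1.6-fold, with an unadjusted p of 0.00288 and an adjusted p of 1 (limma). The gene's other detected probe gave -0.16. Strain against strain, 2 members at 4 h (3.38% of all features) and 1 at 24 h (4%) were under an unadjusted p of 0.05, and groups did not overlap for 6 (8.17%) and 2 (7.23%). The member at 24 h was Slc1a2, a glutamate carrier of glia that was detected in 0 pups with ATCC PTA 6475 and 1 with DSM 17938. The DSM 17938 pups were at least 1.02-fold higher, a bound against the detection floor that does not test a difference.

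The other growth and stress carriers were not under an unadjusted p of 0.05 in any comparison with PBS. Slc7a11, whose promoter is shown above with 2 elements, was detected on 10 arrays and ranged from 4.53 to 5.26. Its differences from PBS were 0.11 and -0.01 at 4 h and -0.14 and 0.14 at 24 h, for DSM 17938 and then ATCC PTA 6475. Its other detected probe gave -0.13, -0.02, -0.18 and -0.15. Slc1a4, also shown above, differed by 0.17, -0.02, 0.00 and -0.08 in the same order. Slc6a9, GlyT1, the glycine carrier, differed by 0.15, 0.28, 0.25 and 0.13.

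Of the endolysosomal group, Slc15a4 and Slc38a7 were measured beside Slc38a9 above. Slc15a4, which exports histidine and peptides from endolysosomes, differed by -0.27, -0.22, -0.09 and -0.20. Its other detected probe was above PBS at 4 h, by 0.21 and 0.08, and stood at -0.0022 and -0.28 at 24 h. Slc38a7, SNAT7, which exports glutamine from lysosomes, differed by -0.39, -0.19, -0.24 and -0.15. Each of these differences on the chosen probes had a 95% interval that included 0.

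Slc38a3 and Slc38a10 held the widest differences with DSM 17938 at 24 h. Slc38a3, SNAT3, a glutamine carrier of the same system N as Slc38a5, read 8.33, 7.53 and 7.69 with PBS, 7.30, 7.16 and 7.49 with DSM 17938 and 7.31, 7.33 and 7.57 with ATCC PTA 6475 at 4 h. The 24 h values were 8.28, 7.73 and 7.94 with PBS, 6.75, 7.75 and 7.68 with DSM 17938 and 7.34, 7.79 and 7.51 with ATCC PTA 6475. PBS pup 1 was the highest at both times, and DSM 17938 pup 1 was the lowest at 24 h. All DSM 17938 pups were below all PBS pups at 4 h, and the other groups overlapped PBS. The differences were -0.53 (SE 0.25, 95% interval -1.06 to 0.00) and -0.44 (SE 0.25, 95% interval -0.97 to 0.09) at 4 h with DSM 17938 and ATCC PTA 6475. At 24 h they were -0.60 (SE 0.25, 95% interval -1.13 to -0.07) and -0.44 (SE 0.25, 95% interval -0.97 to 0.09). The value with DSM 17938 at 24 h had an unadjusted p of 0.0301 and an adjusted p of 0.911 (limma), and was -0.27 without DSM 17938 pup 1.

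Slc38a10, a less studied member of the family, read 7.66, 7.36 and 7.54 with PBS, 7.83, 7.64 and 7.63 with DSM 17938 and 7.73, 7.24 and 7.16 with ATCC PTA 6475 at 4 h. At 24 h it read 6.29, 5.86 and 7.71 with PBS, 7.56, 7.13 and 7.80 with DSM 17938 and 7.39, 7.15 and 8.19 with ATCC PTA 6475. PBS pups 1 and 2 at 24 h stood apart below every other pup, while PBS pup 3 lay inside the range of both strains. The differences from PBS at 24 h were 0.88 (SE 0.36, 95% interval 0.11 to 1.64) with DSM 17938 and 0.96 (SE 0.36, 95% interval 0.20 to 1.72) with ATCC PTA 6475, with adjusted p of 0.911 and 0.231 (limma). Without PBS pup 2 the second was 0.58, and without PBS pup 3 it was 1.504. The gene's other detected probes gave 0.12 and 0.09 with DSM 17938 and 0.05 and -0.15 with ATCC PTA 6475.

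Slc38a11 was the other member under an unadjusted p of 0.05 with DSM 17938 at 4 h, near background. It read 4.49, 4.40 and 4.35 with PBS, 4.56, 4.84 and 5.02 with DSM 17938 and 4.66, 4.77 and 4.62 with ATCC PTA 6475 at 4 h; the 24 h pups read 4.52, 4.84 and 4.78 with PBS, 4.50, 4.55 and 4.42 with DSM 17938 and 4.45, 4.82 and 4.47 with ATCC PTA 6475. It was detected in 2 DSM 17938 pups and 0 PBS pups at 4 h, and all pups of both strains were above all PBS pups. As a bound against the detection floor, which does not test a difference, DSM 17938 was at least 1.04-fold higher (unadjusted p 0.0128, adjusted p 1, limma).

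Carriers best known from nerve and glia were also measured, and none was under an unadjusted p of 0.05 against PBS. Slc6a7, the proline carrier of brain synapses, was above PBS in all ATCC PTA 6475 pups at 24 h. PBS read 6.84, 6.40 and 7.26 and ATCC PTA 6475 7.94, 7.27 and 7.83, a difference of 0.85 (SE 0.44, 95% interval -0.08 to 1.77). In the 4 h PBS pups it was 7.71, 5.71 and 7.65, a wider spread within 1 group than that difference. Slc6a13, GAT2, a carrier of GABA and taurine, was 5.46, 6.05 and 5.44 with PBS and 5.64, 4.94 and 4.81 with ATCC PTA 6475 at 24 h, groups that overlapped at a difference of -0.52 (SE 0.25, 95% interval -1.06 to 0.02). Its effect with ATCC PTA 6475 at 24 h minus that at 4 h was -1.002 (SE 0.36, 95% interval -1.76 to -0.24), and that of Slc1a6, a glutamate carrier of Purkinje cells, was -0.42 (SE 0.19, 95% interval -0.83 to -0.01). Both had an adjusted p of 1 (limma).

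Between the times, 4 members were under an unadjusted p of 0.05 in PBS alone, 3 higher (1.89% of all features) and 1 lower (1.92%) at 24 h, against 3.81% in all; groups did not overlap for 3 members (9.25%). They were Slc38a5, Slc1a1, Slc6a13 (0.57 (SE 0.25, 95% interval 0.03 to 1.11)) and Slc38a10 (-0.90 (SE 0.36, 95% interval -1.66 to -0.14)). Over the 3 treatments there were 3 (5.71% of all features), namely Slc1a1, Slc38a1 and Slc7a6os, which read 0.33 (SE 0.13, 95% interval 0.07 to 0.60) higher on 1 probe and 0.08 on the other. All 7 basolateral members were above 0 over the 3 treatments, with differences of 0.0034 to 0.20, beside 49% of all features. Other detected probes of Slc43a1 and Slc7a8 were below 0, at -0.008 and -0.07.

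The other members with one of the lowest p in a comparison were Slc15a2, Slc7a4, Slc36a2, Slc6a12 and Slc38a8, none of them under an unadjusted p of 0.05 there. Slc15a2, PepT2, the peptide carrier best known from kidney, was lower in all ATCC PTA 6475 pups than in all DSM 17938 pups at 4 h, by -0.43 (SE 0.24, 95% interval -0.93 to 0.08), and its other detected probe gave -0.49. It read 5.98, 6.44 and 6.56 with DSM 17938 and 5.86, 5.97 and 5.87 with ATCC PTA 6475. Slc7a4 stood -0.22 (SE 0.14, 95% interval -0.51 to 0.07) from DSM 17938 with ATCC PTA 6475 at 24 h, in groups that overlapped. Slc36a2, PAT2, a proton-coupled carrier of small amino acids, was detected in 2 ATCC PTA 6475 pups and 0 PBS pups at 4 h, where it was at least 1.05-fold higher. It was detected on 3 arrays in all, the fewest the detection rule allows. It thus passed that rule only through those 2 pups, and the bound does not test a difference. Slc6a12, BGT1, a carrier of betaine and GABA, was detected in 2 DSM 17938 pups and 0 PBS pups at 24 h. It was at least 1.03-fold higher by the same kind of bound. Slc38a8, detected in 1 of 9 pups at 24 h and 2 of 9 at 4 h, differed between the times by -0.14 over the 3 treatments.

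Companion genes of the transporters gave no call either. Of 15 measured peptidases and transport partners, 0 passed in any comparison with PBS. Most of them were below PBS with both strains at both times. At 4 h 3 of 15 were above PBS with DSM 17938 (median -0.17) and 2 with ATCC PTA 6475 (median -0.19). With DSM 17938 at 24 h 5 of 15 were above PBS (median -0.16). With ATCC PTA 6475 at 24 h 2 of the 15 were above PBS, at a median of -0.32 beside 0.0153 for all features, and 3 were lower at an unadjusted p under 0.05 (7.48% of all features). Slc16a10, TAT1, the basolateral carrier of aromatic amino acids, was 7.06 ± 0.06 against 7.96 ± 0.21 with PBS (mean ± SD), a difference of -0.91 with an adjusted p of 0.123 (limma). Naaladl1, an ileal peptidase, was 10.29 ± 0.49 against 11.04 ± 0.36, a difference of -0.74. The ATF4 response list had 16 of 23 genes above PBS with DSM 17938 at 4 h, at a median of 0.12 and with 2 higher at an unadjusted p under 0.05 (1.66% of all features). Asns, asparagine synthetase, stood at 0.39. Within PBS, 17 of the 23 were higher at 24 h than at 4 h, at a median of 0.15. Against those 24 h PBS pups, 7 of 23 were above with DSM 17938, at a median of -0.14. The list had 6 of 23 above the same PBS pups with ATCC PTA 6475 at 24 h, at a median of -0.16 and with 4 lower (7.48%). Phgdh, the first enzyme of serine synthesis, stood at -0.86. Of 21 lysosomal sensing genes, 2 were higher (7.59% of all features) and 3 lower (7.48%) at an unadjusted p under 0.05 with ATCC PTA 6475 at 24 h. The list as a whole had 12 of 21 above PBS there, at a median of 0.06, so it did not move in 1 direction. Tsc1, an inhibitor of mTORC1 signalling, stood 0.59 from PBS, and Lamtor1 and Lamtor2, which hold the sensing complex on the lysosome, stood -0.50 and -0.57 from it.

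Markers of other cells also differed in the comparisons with PBS. Most fibroblast markers were above PBS with both strains at both times. At 4 h these were 5 of 6 with DSM 17938 (median 0.23) and 6 of 6 with ATCC PTA 6475 (median 0.26). At 24 h 5 of 6 were above PBS with each strain, at medians of 0.29 and 0.35 in the same order. Leukocyte markers had a median difference of 0.75 with ATCC PTA 6475 at 4 h, with 7 of 8 measured markers above PBS and 5 of 8 higher at an unadjusted p under 0.05 (1.76% of all features). Their mean ranged from 7.28 to 7.91 in the PBS pups and from 7.65 to 8.81 in those with ATCC PTA 6475, and Ptprc, the pan-leukocyte marker, was below the detection rule. Proliferation markers had a median of -0.40 with ATCC PTA 6475 at 24 h, 0 of 8 above PBS and 3 lower at an unadjusted p under 0.05 (7.48%). Their means were 8.31 to 8.85 in the PBS pups and 8.09 to 8.32 with the strain. DSM 17938 at 24 h also had 0 of 8 above the same PBS pups, at a median of -0.29. Within PBS, 8 of 8 were higher at 24 h than at 4 h, at a median of 0.33. Ileal enterocyte markers had a median of -0.46 with DSM 17938 at 4 h, 2 of 9 above PBS and 2 lower (1.68%), with means of 10.7 to 11.8 and 10.9 to 11.5. The epithelial markers went the other way in that comparison, with 6 of 8 above PBS at a median of 0.16. The part of these markers in the transporter values was not tested.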

How the data were processed

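Epithelial RNA of 18 pups was purified with PicoPure and amplified to biotinylated cRNA with MessageAmp, per the labels' protocols. The submitters' processing notes name GenomeStudio, with no version. Bead signals were deposited as linear intensity per probe, without normalisation between arrays, per the file headers. Beside each signal the authors deposited a detection fraction between 0 and 1; it rises with the signal and was read as 1 minus the detection p. A further table of log2 values from the authors, with column medians of 5.92, equals quantile-normalised signals to within 0.00584; its background correction is not stated, and it was used only as an alternative.

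Background correction and quantile normalisation used neqc of limma 3.58.1 in R 4.3.3 (offset 16). The detection rule (p under 0.05 on 3 arrays or more) kept 24506 of 45281 probes. RefSeq symbols were taken through the gene ID for 34807 probes, whether or not the platform symbol differed. Of all probes, 34885 have 1 symbol, 18 several and 10378 none. Tested were 12804 genes and 4031 unnamed probes.

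A limma model with a mean for each of the 6 groups (12 residual, 4.25 prior degrees of freedom) gave 10 comparisons: strains with PBS and with each other at both times, 24 h with 4 h in PBS and in all treatments, and the change of each strain's effect from 4 h to 24 h. Benjamini-Hochberg adjustment ran over 16835 features per comparison. The members' median standard error was 0.186, limited by the number of arrays. Where a probe was detected on no array of a group, the fold is given as a bound: the mean of the brighter group over the dim group's detection floor (per array, the lowest detected signal or the probe's own, whichever is higher). The other detected probes of members (21 probes) had the opposite sign to the chosen one in 82 of 210 checks over all 10 comparisons, and in 9 of the 38 where the gene was among those named for the comparison by its p.

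Members and lists were chosen with earlier results of these data known. The text names the members that were, in any comparison, among the 3 above and the 3 below with the lowest unadjusted p, and members with a known place in intestinal epithelium. The alternatives were an offset of 50, scaling to a common median, the authors' values, detection filters (none, stricter), a replicate block, array weights, fits of the compared arrays alone, averaged probes, and each array left out in turn. The model was tested on simulated data. Promoters are from RefSeq, GRCm38.p6.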

Additional observations from a re-analysis of the deposited data

How the results depend on the processing

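No member passed the adjusted threshold under any setting tried, and 60 of 61 gene and comparison pairs kept their direction in all of them. The exception was Slc38a5 for ATCC PTA 6475 against DSM 17938 at 24 h, -0.0452 with arrays scaled to a common median; the cause was not tested. At 4 h that scaling moved the members' median to -0.0841 with DSM 17938 and -0.107 with ATCC PTA 6475. At 24 h it gave -0.148 with ATCC PTA 6475 and -0.127 for that strain against DSM 17938. The effects at 24 h minus those at 4 h became 0.129 (DSM 17938) and -0.062 (ATCC PTA 6475). The same scaling took the median of all features to -0.07 with DSM 17938 and -0.11 with ATCC PTA 6475 at 4 h. At 24 h that median was -0.16 with ATCC PTA 6475 and -0.17 for strain against strain. With the mean of all detected probes of a gene, the members' median with ATCC PTA 6475 at 24 h was -0.0475. Same-numbered pups had correlations of -0.05 to 0.51 over 45 pairs (median 0.16, 31 over 0.1), against -0.52 to 0.27 over 90 pairs of different numbers (median -0.11, 12 over 0.1). Pups of 1 number thus deviated together more often than others, but not in every pair. The labels give no shared source, so the numbers were not taken as a pairing. Correlations of an array with those of other groups were averaged by number, and 17 of 18 arrays had the highest mean with their own number. With that replicate block, 246 of all features passed with ATCC PTA 6475 at 24 h and 1 passed for 24 h against 4 h over the 3 treatments, none of them a member. Array weights gave 1 feature in that last comparison, and fits of only the compared arrays gave 6 for DSM 17938 at 24 h, 1 for strain against strain at 24 h and 6 for PBS between the times, against 0 in each otherwise. Leaving out 1 array at a time, the number of features passing ran from 0 to 10 for DSM 17938 and from 0 to 8 for strain against strain at 4 h, both highest without DSM 17938 pup 1. At 24 h it ran from 0 to 2 for DSM 17938, from 0 to 1 for ATCC PTA 6475 and from 0 to 1 for strain against strain. Between the times it ran from 0 to 2 in PBS and from 0 to 1 over the 3 treatments. The members' median for PBS between the times ran from -0.0806, without PBS 4 h pup 2, to 0.0186. With 3 pups per group the median standard error of a member's difference was 0.186, which limits what can be seen.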
